A study of Mus musculus with 4 samples.

Results

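Mouse innate lymphoid cells can display peptides to CD4+ T cells on MHC class II molecules, and the genes described here make up that display machinery. They were 10 genes chosen by their symbols out of the 53379 genes listed for small intestinal group 3 innate lymphoid cells (ILC3s). The choice was made with earlier results of these data known, so the counts below are descriptions and no independent test. They comprise the transactivator Ciita, the invariant chain Cd74, the classical chains H2-Aa, H2-Ab1 and H2-Eb1, the peptide editor chains H2-DMa, H2-DMb1 and H2-DMb2, and the modulator chains H2-Oa and H2-Ob. Of the 10, 9 had a mean FPKM (fragments scaled to transcript length and to the size of the library) above 1 in either group and were tested with the 14739 genes that met this limit, and H2-Ob was not. All 9 had a mean above 1 in both groups. Sorted by size, the FPKM values hardly differed between libraries (99.3% of 13693 ranks within 1%), which scaling by length and library size alone does not give.

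Marrow of 2 donor genotypes was mixed in equal cell numbers and given to sublethally irradiated Rag2-/- Il2rg-/- mice, and ILC3s were sorted from the small intestinal lamina propria 6 to 7 weeks later as Thy1.2high CD45low cells. Brg1-sufficient ILC3s, the controls, were Thy1.1- cells of Thy1.2 Rag1-/- Smarca4 f/f donors. Brg1-deficient ILC3s were Thy1.1+ cells of Thy1.1 Thy1.2 Rag1-/- Smarca4 f/f donors that also carried a Cre, which removes the floxed part of Smarca4, the gene of the chromatin remodelling ATPase Brg1. There were 2 RNA-seq libraries in each group. Both donors lacked Rag1, and with it T and B cells. The Thy1.1 allele went with the Cre, so genotype and congenic marker cannot be told apart. Smarca4 was at 17.1 and 16.7 FPKM in the controls, against 9.98 and 9.03 FPKM in Brg1-deficient ILC3s, a mean of 56.2% of the control mean (adjusted p = 0.153 by limma). Reads from outside the floxed part also count toward this value for the whole gene, which therefore does not measure how much Brg1 was lost.

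MHC class II molecules are pairs of an alpha and a beta chain that bind peptides in endosomes and carry them to the cell surface. The invariant chain fills the groove during transport and is cut away by endosomal proteases, after which the DM heterodimer exchanges its remnant for peptides and the DO heterodimer restrains DM. The genes share a promoter layout of S, X and Y boxes bound by RFX, CREB and NF-Y factors, on which CIITA is recruited. Among intestinal ILC3s, the CCR6+ lymphoid tissue inducer (LTi)-like cells are known for carrying MHC class II.

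Cd74 and the classical chains were among the most abundant class II messages in control ILC3s, and Cd74, H2-Aa, H2-Ab1, H2-Eb1, H2-DMa and H2-Oa were lower in both Brg1-deficient libraries. In a fit of limma across all genes tested on log2(FPKM + 1), with Benjamini-Hochberg adjustment, 1 of the 9 members tested, H2-Oa, was lower at an adjusted p under 0.05, where 0.224% of all genes tested were. None was higher at that threshold, where 0.0814% of all genes were. At an unadjusted p under 0.05, 6 of the 9 were lower, against 6.47% of all genes tested, and 0 were higher, against 6.12%. In the same 6 genes both Brg1-deficient libraries lay below both control libraries, an arrangement that 20.2% of all genes tested showed. The median log2 fold change of the 9 members was -1.05, beside 0.03 for all genes tested. The smallest two-sided p that an exact permutation of 2 and 2 libraries allows for 1 gene is 0.333, and the limma p therefore depends on variances moderated over the whole table. When Brg1-sufficient library 1 or library 2 was left out, 1 member was lower at an unadjusted p under 0.05, and without Brg1-deficient library 1 there were 3. In bulk libraries, fewer cells of a type and less RNA per cell cannot be told apart.

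**Figure D1:**
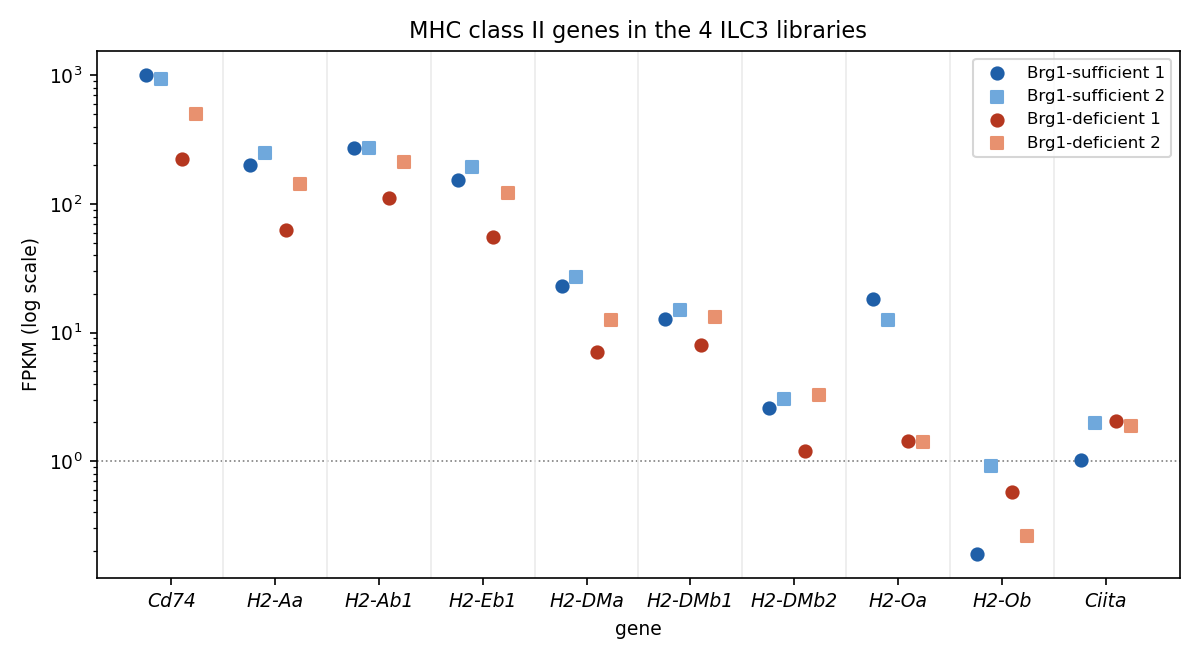
FPKM of the 10 MHC class II genes on a log axis, with 1 point per library (blue, Brg1-sufficient; red, Brg1-deficient; circles, library 1; squares, library 2) and a dotted line at 1 FPKM. Both red points lie below both blue points for Cd74, H2-Aa, H2-Ab1, H2-Eb1, H2-DMa and H2-Oa, and the red circle is below the red square in all of these but H2-Oa.

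To show what the promoters of these genes have in common, the stretch from the X box to the Y box is given for 6 members, 5′ to 3′ on each gene's own strand. The sequences are from RefSeq promoters (250 bases before to 50 after the start) on GRCm38.p6. Capitals mark 6 letters ending in AAC at the X box position and TGATTGG, a Y box whose last 5 letters are CCAAT on the other strand.
H2-Oa, chr17:34092292-34092345 (+): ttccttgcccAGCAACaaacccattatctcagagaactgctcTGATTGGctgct
H2-DMb2, chr17:34145115-34145168 (+): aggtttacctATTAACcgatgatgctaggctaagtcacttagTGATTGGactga
H2-DMb1, chr17:34153086-34153115 (+): aggtttacctAGTAACtgatgatgctaggc
H2-Ob, chr17:34238807-34238857 (+): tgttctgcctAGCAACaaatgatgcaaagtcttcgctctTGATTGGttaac
H2-Aa, chr17:34287862-34287915 (-): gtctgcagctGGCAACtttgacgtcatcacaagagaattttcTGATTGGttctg
H2-Eb1, chr17:34305765-34305817 (+): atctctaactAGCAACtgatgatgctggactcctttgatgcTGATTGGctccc
The H2-DMb1 stretch is cut to its first 30 bases, since it lies in an annotated 5′ untranslated region, and the last 6 bases of the H2-Oa stretch lie in one. The other 4 overlap no annotated untranslated region.

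Promoters were found for 7 of the 10 members, all on chromosome 17. Of these 7 genes, 6 held AAC followed on the same strand by TGATTGG with 15 to 30 bases between them, which 1.44% of all 32851 promoters did on either strand. The gap was 26 bases in H2-Oa, H2-DMb1, H2-DMb2 and H2-Aa, 25 bases in H2-Eb1 and 23 bases in H2-Ob. TGATTGG alone was in the same 6 genes and in 7.82% of all promoters, and CCAAT was in 7 of 7 genes and in 37.4% of all promoters, on either strand. H2-DMa was the member without TGATTGG in either of its promoter windows. The letters and the gap were chosen after these sequences were seen. The genes that hold this pair include H2-Oa, which fell, and H2-DMb1 and H2-DMb2, whose values overlapped between the groups.

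Ciita, on chromosome 16 (chr16:10480059-10528418, + strand of GRCm38), encodes the coactivator that sets the level of class II transcription. It was at 1.03 and 1.97 FPKM in the controls, compared with 2.07 and 1.87 FPKM in the Brg1-deficient group. The groups overlapped, and the lowest value was a control. The log2 fold change was 0.27, with a 95% interval from -0.55 to 1.09, so neither a lower nor a higher level was resolved (adjusted p = 0.761). Without Brg1-sufficient library 1 the log2 fold change was -0.0008, and without library 2 it was 0.55. Dexi overlaps Ciita on the opposite strand over 25888 bases and was at 3.08 and 5.72 FPKM in the controls, against 3.68 and 3.48 FPKM in Brg1-deficient ILC3s.

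Cd74, on chromosome 18, encodes the invariant chain and had the highest FPKM of the 10 genes in every library. It was at 1014 and 939.6 FPKM in control ILC3s and 223 and 505 FPKM in those lacking Brg1. The microRNA gene Mir5107 lies within Cd74 on the same strand and was listed at 103, 99.7, 8.79 and 29.4 FPKM, controls first, and reads from the overlap cannot be told apart. Ranked by FPKM among all genes, Cd74 stood at 82 and 87 in the controls and at 404 and 160 in the Brg1-deficient libraries. Both Brg1-deficient values were below both controls, but they were 2.26-fold apart from each other. The log2 fold change was -1.54 (SE 0.381, 95% interval -2.49 to -0.58, adjusted p = 0.2 by limma), and it was -0.95 without Brg1-deficient library 1 and -2.12 without library 2.

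The classical chains lie next to each other at the far end of the class II region of chromosome 17. H2-Aa, the I-A alpha chain (chr17:34282744-34287823, - strand), was at 200.5 and 251 FPKM in the controls, against 62.4 and 144 FPKM in Brg1-deficient ILC3s. H2-Ab1, its beta chain partner (chr17:34257689-34269419, + strand), was at 273 and 272 FPKM in the controls, compared with 112 and 212 FPKM in the Brg1-deficient group. H2-Eb1, the I-E beta chain (chr17:34305867-34316674, + strand), was at 153 and 193 FPKM in the controls and 55.4 and 123 FPKM in those lacking Brg1. For all 3 chains both Brg1-deficient libraries were below the controls, with library 1 the lowest of the 4 and library 2 between it and the controls. The log2 fold changes were -1.23 for H2-Aa (SE 0.398), -0.81 for H2-Ab1 (SE 0.303) and -1.05 for H2-Eb1 (SE 0.381), and their adjusted p by limma ran from 0.309 to 0.367. Leaving out Brg1-deficient library 1 brought them to -0.63, -0.36 and -0.48. Gm20513, which overlaps H2-Eb1 on the opposite strand, was listed at 0.82 FPKM at most. The I-E alpha chain gene is annotated as a pseudogene, H2-Ea-ps. It was at 0 and 0 FPKM in the controls and 0.36 and 0.13 FPKM in Brg1-deficient ILC3s, and it was not tested. The H2-Eb1 message therefore does not show that these cells carry I-E.

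DM catalyses the exchange of the invariant chain remnant for peptide. H2-DMa, the DM alpha chain (chr17:34119541-34139101, + strand), was at 23 and 27.3 FPKM in the controls, against 7.11 and 12.5 FPKM in Brg1-deficient ILC3s. The groups did not overlap, the log2 fold change was -1.32 (SE 0.280, 95% interval -2.02 to -0.61), and the adjusted p was 0.153 by limma. In the annotation the gene overlaps Brd2 on the opposite strand over 3094 bases. Whether the counting used strand is not given in the sources used here, and Brd2, a chromatin reader gene, was at 189 and 224 FPKM in the controls, compared with 264 and 239 FPKM in the Brg1-deficient group.

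The DM beta chain is encoded by neighbouring genes that are near copies of each other. H2-DMb1 (chr17:34153072-34160230, + strand) was at 12.7 and 15.1 FPKM in the controls and 8 and 13.1 FPKM in those lacking Brg1. H2-DMb2 (chr17:34143307-34151555, + strand) was at 2.6 and 3.04 FPKM in the controls, against 1.21 and 3.29 FPKM in Brg1-deficient ILC3s. In both genes Brg1-deficient library 1 was lowest and library 2 was level with or above a control, so the groups overlapped. The log2 fold changes were -0.40 for H2-DMb1 (95% interval -1.06 to 0.27, adjusted p = 0.603) and -0.31 for H2-DMb2 (95% interval -1.28 to 0.66, adjusted p = 0.775). Without Brg1-deficient library 1 the values were -0.07 for H2-DMb1 and 0.17 for H2-DMb2, and without library 2 they were -0.72 and -0.79. The transcripts were 94.6% identical over 1219 aligned bases, and 26.6% of the 50-base and 15.9% of the 90-base windows of H2-DMb1 were also in H2-DMb2. Reads from such windows could be divided between these genes by the quantification, which makes both values uncertain. No other pair of members shared a 50-base window.

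H2-Oa, the DO alpha chain (chr17:34092340-34095234, + strand), was the member with the largest difference. It was at 18.4 and 12.6 FPKM in the controls, compared with 1.44 and 1.4 FPKM in the Brg1-deficient group. Both values lacking Brg1 lay close together, unlike those of Cd74 and the classical chains, and far below both controls. Their mean was 9.16% of the control mean, a 10.9-fold lower level. H2-Oa fell by 2.75 on the log2(FPKM + 1) scale (SE 0.248, 95% interval -3.37 to -2.12, adjusted p = 0.0386 by limma). The log2 fold change stayed between -3.0 and -2.49 when 1 library was left out, but no gene of the table was then called, and the adjusted p of H2-Oa was 0.237 and 0.131 without Brg1-sufficient library 1 and 2, and 0.572 and 0.596 without Brg1-deficient library 1 and 2. It was 0.0912 with no filter on low FPKM and 0.124 without the trend in limma. In the annotation, BC051537 on the opposite strand covers all 2895 bases of H2-Oa, and it was listed at 0.36 FPKM at most.

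H2-Ob, the DO beta chain (chr17:34238903-34254414, + strand), was at 0.19 and 0.92 FPKM in the controls and 0.58 and 0.26 FPKM in those lacking Brg1. It was under 1 FPKM in all 4 libraries, the groups overlapped, and it was not tested. On this scale, which takes out transcript length, H2-Oa exceeded its partner chain 96.9- and 13.7-fold in the controls and 2.48- and 5.38-fold in the Brg1-deficient libraries. These ratios are uncertain, since they divide by H2-Ob values under 1 FPKM.

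**Figure D2:**
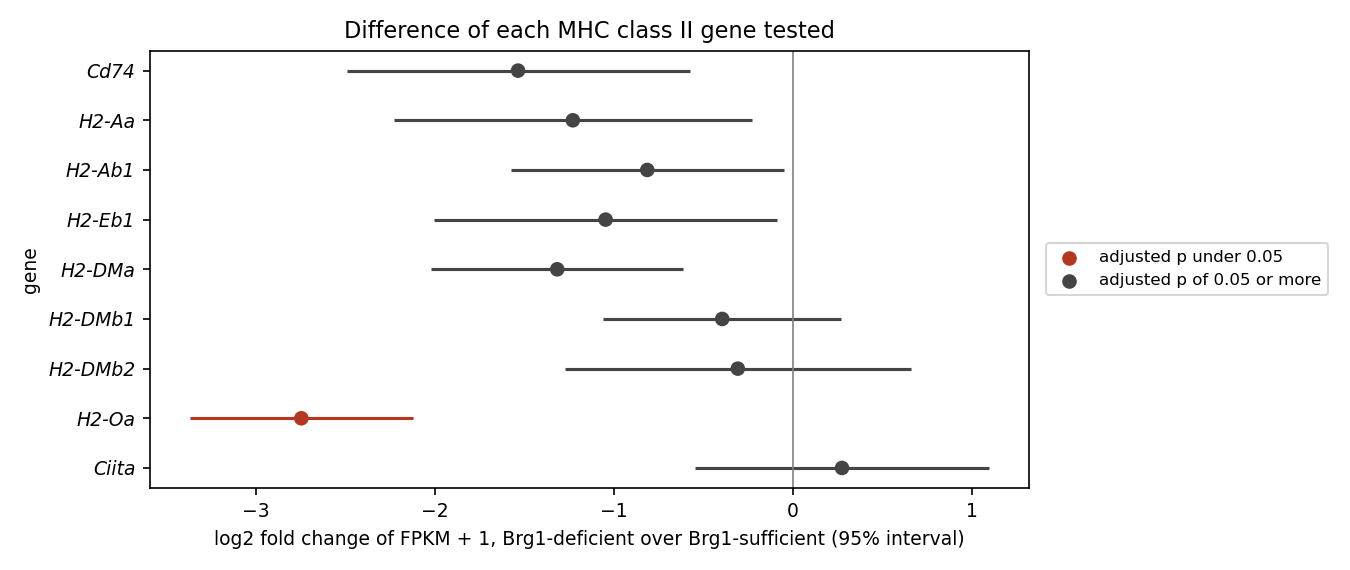
Log2 fold change of FPKM + 1 (Brg1-deficient over Brg1-sufficient) for the 9 MHC class II genes tested, with 95% intervals from limma and a grey line at 0. H2-Oa, in red, is at -2.75 and has an adjusted p under 0.05, and the intervals of Ciita, H2-DMb1 and H2-DMb2 include 0.

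Since FPKM is scaled by length, members were also set against each other within each library. H2-DMa stood to H2-DMb1 as 1.82 and 1.81 in the controls and as 0.889 and 0.95 in the Brg1-deficient libraries. Cd74 stood to H2-Ab1 as 3.72 and 3.46 in the controls and as 1.99 and 2.39 in the Brg1-deficient libraries. H2-Oa stood to H2-DMa as 0.799 and 0.463 in the controls and as 0.203 and 0.112 in the Brg1-deficient libraries. In each of these pairs the ratio was lower in both Brg1-deficient libraries than in either control. These ratios restate the differences of the single genes, and how often other gene pairs are ordered this way was not counted. The ratio of H2-Aa to H2-Ab1 was 0.736 and 0.924 in the controls and 0.556 and 0.682 in the Brg1-deficient libraries. The ratio of H2-Eb1 to H2-Ab1 overlapped between the groups, at 0.56 and 0.709 in the controls and 0.493 and 0.58 in the Brg1-deficient libraries. With 2 libraries a group, the exact two-sided permutation test of a ratio cannot go below p = 0.333, the value that the ratios without overlap gave.

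The Brg1-deficient libraries also differed from each other. Library 2 was over 1.5 times library 1 in 7 of the 9 members tested, where 8.37% of all genes tested were. Of the controls, library 2 was over 1.5 times library 1 in 1 of the 9 members, Ciita. The summed FPKM of the 10 members was 1698 and 1716 in the controls and 474 and 1016 in the Brg1-deficient libraries. The mean of log2(FPKM + 1) over the members was 4.88 and 5.07 in the controls and 3.73 and 4.36 in the Brg1-deficient libraries.

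Markers of other cells were set beside these values, since the host keeps its myeloid cells and macrophages, dendritic cells and B cells express class II genes. The summed FPKM of 11 macrophage and monocyte markers was 164 and 355 in the controls and 120 and 315 in the Brg1-deficient libraries, higher in library 2 of both groups. Lyz2, the lysozyme of myeloid cells, was at 84.1 and 203 FPKM in the controls, against 64.4 and 192 FPKM in Brg1-deficient ILC3s, and Csf1r, the receptor for macrophage colony-stimulating factor, was at 1.6, 6.88, 2.35 and 5.99 FPKM in the same order. At an unadjusted p under 0.05, 1 of the 11 was lower (Adgre1) and 1 was higher (Fcgr1), against 6.47% and 6.12% of all genes tested. None passed at an adjusted p under 0.05, and Mertk was under 1 FPKM in every library. Between the Brg1-deficient libraries the sum was higher in library 2, as Cd74 and the classical chains were. Between the controls it was also higher in library 2, where H2-Aa, H2-Eb1, H2-DMa, H2-DMb1 and H2-DMb2 were higher too, H2-Aa at 251 FPKM against 200.5 in library 1 and H2-Eb1 at 193 against 153, while Cd74 was at 939.6 FPKM against 1014 and H2-Ab1 at 272 against 273. The part of these cells in the class II values was not tested.

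Of 9 B cell markers, 7 were under 1 FPKM in every library, among them Ms4a1 and Pax5, with Pax5 at 0.32 FPKM at most. Of 9 dendritic cell markers, 3 were under 1 FPKM in every library, Flt3 among them, and the growth factor receptor Flt3 reached 0.64 FPKM at most. The sums were 66.8, 81.6, 37.7 and 48.5 FPKM for the B cell list and 94.6, 117, 119 and 138 FPKM for the dendritic cell list, controls first. The B cell sum was mostly the kinase gene Blk, at 56.2 and 69.5 FPKM in the controls, compared with 34.4 and 45.8 FPKM in the Brg1-deficient group. Cd79b, a B cell receptor subunit, was at 8.68 and 10.02 FPKM in the controls and fell to 1.03 and 0.99 FPKM (adjusted p = 0.0386 by limma), and Zbtb46, a dendritic cell factor, was at 40.4 and 31.1 FPKM, against 12.2 and 7.51 FPKM. Batf3, another dendritic cell factor, made up most of that list's sum and was the other way round. It was at 47.8 and 77.3 FPKM in the controls, against 101 and 125 FPKM in Brg1-deficient ILC3s. Neither Zbtb46 nor Batf3 passed at an adjusted p under 0.05. Which cells the Blk, Cd79b, Zbtb46 and Batf3 messages came from was not tested. Of 9 epithelial markers, 5 were under 1 FPKM in every library, and the list summed to 11.2 and 11.5 FPKM in the controls and to 24.3 and 22.5 FPKM in the Brg1-deficient libraries.

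All 11 ILC3 markers were above 1 FPKM in some library. Of the markers of CCR6+ LTi-like cells, 6 of 9 were lower and 1 was higher at an unadjusted p under 0.05. Over all genes tested the shares were 6.47% lower and 6.12% higher. The marker lists, too, were chosen with earlier results of these data known. None of the 9 passed at an adjusted p under 0.05, and their median log2 fold change was -0.79. These markers of LTi-like cells summed to 1070 and 1070 FPKM in the controls and to 719 and 772 FPKM in the Brg1-deficient libraries. Ccr6, the chemokine receptor that names them, was at 186 and 203 FPKM in the controls, against 92.9 and 106 FPKM in Brg1-deficient ILC3s (adjusted p = 0.0901). Tnfsf11 was higher at an unadjusted p under 0.05, at 62.8 and 50.9 FPKM against 110 and 76.3 FPKM. Of 10 markers of NKp46+ ILC3s and ILC1 or NK cells, 2 fell at an adjusted p under 0.05, Ncr1, which encodes NKp46, and Ifng. The share over all genes tested was 0.224%. Of the 9 tested, 5 were lower and 1 was higher at an unadjusted p under 0.05. Their median log2 fold change was -1.54, and the list summed to 329, 379, 262 and 274 FPKM, controls first. Klrk1, the receptor gene that made up most of the sum in the Brg1-deficient libraries, was higher there, at 165 and 190 FPKM against 105 and 113 FPKM in the controls (adjusted p = 0.143). The list of 9 ILC2 markers summed to 184 and 98.1 FPKM in the controls and to 41.4 and 35.6 FPKM in the Brg1-deficient libraries. Of the 8 tested, 5 were lower and 1 was higher at an unadjusted p under 0.05, and none passed at an adjusted p under 0.05. Their median log2 fold change was -2.14. The higher gene, Hpgds, was at 2.31 and 6.61 FPKM in the controls, against 20.6 and 19.9 FPKM in Brg1-deficient ILC3s. It made up a large part of the ILC2 sum in the Brg1-deficient libraries. The sort was on Thy1.2 and CD45 and did not separate subsets, and the part of subset composition in the class II values was not tested.

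**Figure D3:**
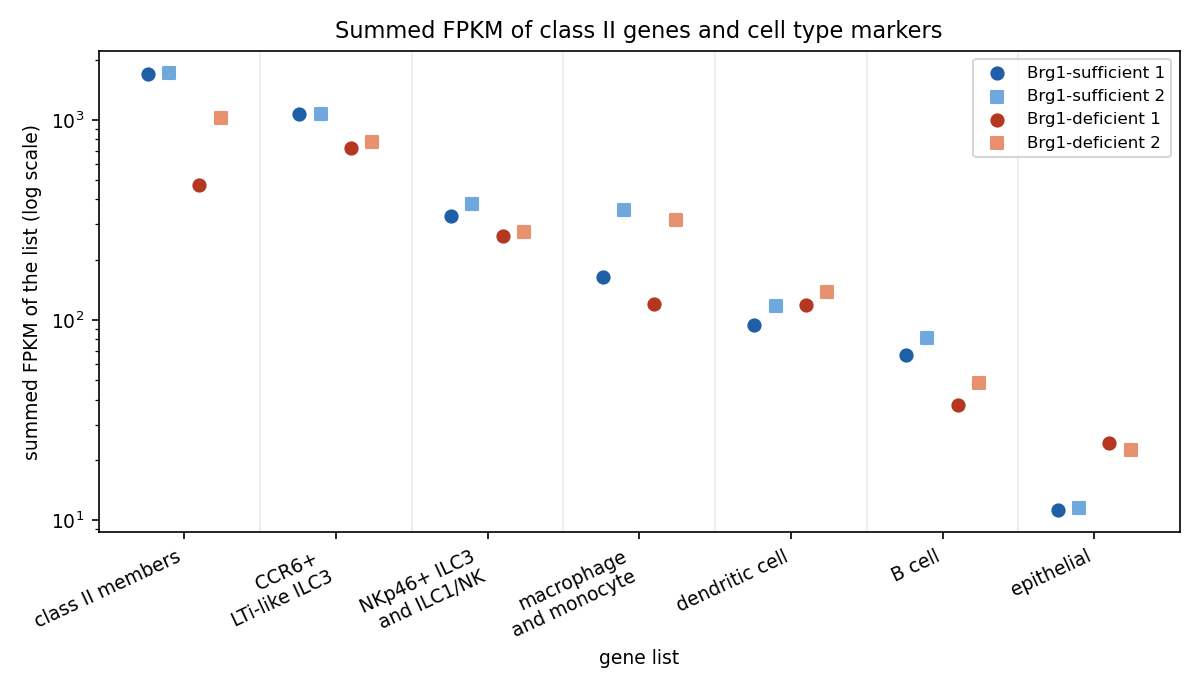
Summed FPKM per library, on a log axis, of the 10 MHC class II genes and of marker lists of ILC3 subsets and other cell types (blue, Brg1-sufficient; red, Brg1-deficient; circles, library 1; squares, library 2). The class II sum is 474 and 1016 in the Brg1-deficient libraries against 1698 and 1716 in the controls, and the macrophage sum is higher in library 2 of both groups.

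The factors that bind class II promoters and those that set Ciita levels were described as lists. Of 7 promoter factors, none was called at an adjusted p under 0.05. At an unadjusted p under 0.05, 1 was lower, against 6.47% of all genes tested. It was Rfxank, an RFX subunit, at 31.4 and 30.4 FPKM in the controls, compared with 18.8 and 20.6 FPKM in the Brg1-deficient group (log2 fold change -0.63, adjusted p = 0.184 by limma). The other 6 had log2 fold changes from -0.04 for Nfyb to 0.57 for Nfya, and their list's median was 0.06.

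Of 13 inducers and repressors of Ciita, 12 were tested. At an unadjusted p under 0.05, 3 were lower, against 6.47% of all genes tested, and 0 were higher, against 6.12%. Ifngr1, a chain of the interferon-γ receptor, was at 356 and 276 FPKM in the controls and 177 and 130 FPKM in those lacking Brg1 (log2 fold change -1.04, adjusted p = 0.148). Irf8, a transcription factor of the interferon regulatory family, was at 35.1 and 58.8 FPKM in the controls, against 19.2 and 15.1 FPKM in Brg1-deficient ILC3s (log2 fold change -1.36, adjusted p = 0.147). Prdm1, a repressor of Ciita in plasma cells, was at 3.06 and 6.28 FPKM in the controls, compared with 1.97 and 1.6 FPKM in the Brg1-deficient group (adjusted p = 0.359). In 5 genes of the list, these 3 among them, both Brg1-deficient libraries lay below both controls, against 20.2% of all genes tested. None of the list passed at an adjusted p under 0.05. Among the most abundant of the rest, Irf1 was at 152 and 232 FPKM in the controls and 213 and 236 FPKM in those lacking Brg1, with a log2 fold change of 0.26. Jak1 had a log2 fold change of -0.15, and the list's median was -0.12.

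Endosomal proteases cut the invariant chain and the antigens. The list of 11 genes held such proteases, the reductase gene Ifi30 and Cst3, which encodes a cathepsin inhibitor. Of these 11, 2 were lower and 1 was higher at an unadjusted p under 0.05, against 6.47% and 6.12% of all genes tested. None was called at an adjusted p under 0.05, and the median log2 fold change was -0.18. Ctss, the cathepsin that makes the last cuts of the invariant chain in antigen-presenting cells of the marrow lineage, was at 184 and 220.2 FPKM in the controls, against 61.7 and 93.4 FPKM in Brg1-deficient ILC3s (log2 fold change -1.40, adjusted p = 0.104). Ctsl, which does so in thymic epithelium, was at 164 and 127 FPKM in the controls, compared with 67.3 and 44.9 FPKM in the Brg1-deficient group (log2 fold change -1.37, adjusted p = 0.111). Ctss, like the classical chains, was higher in Brg1-deficient library 2 than in library 1, and Ctsl was not. Ctsc, which activates granule proteases, was at 86.1 and 104 FPKM in the controls and 138 and 179 FPKM in those lacking Brg1 (log2 fold change 0.73, adjusted p = 0.221). The broadly expressed Ctsb and Ctsh had log2 fold changes of -0.28 and -0.22.

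Of 9 genes of class II trafficking and turnover, 2 were lower at an unadjusted p under 0.05, against 6.47% of all genes tested. None was called at an adjusted p under 0.05, and the median log2 fold change of the list was -0.14. Cd63, a tetraspanin of late endosomes, was at 8 and 11.4 FPKM in the controls, against 2.62 and 2.92 FPKM in Brg1-deficient ILC3s (log2 fold change -1.49, adjusted p = 0.0995). Lamp1, a lysosomal membrane glycoprotein, was at 118 and 124 FPKM in the controls, compared with 96.9 and 94.3 FPKM in the Brg1-deficient group (log2 fold change -0.34, adjusted p = 0.381). Cd82, another tetraspanin, had a log2 fold change of -0.14.

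The 6 genes listed as costimulatory include Cd274 and Pdcd1lg2, whose products restrain T cells. Of the 6, 5 were tested and none was called at an adjusted p under 0.05. At an unadjusted p under 0.05, 2 were lower, against 6.47% of all genes tested. Cd40, the receptor through which T cells activate antigen-presenting cells, was at 4.65 and 8.09 FPKM in the controls and 1 and 0.6 FPKM in those lacking Brg1 (log2 fold change -2.0, adjusted p = 0.104). Icosl, the ligand of ICOS, was at 12.8 and 14.7 FPKM in the controls, against 10.1 and 9.73 FPKM in Brg1-deficient ILC3s. Cd80 was under 1 FPKM in every library, and Cd86 was at 2.37 and 2.6 FPKM in the controls, compared with 2.53 and 4.84 FPKM in the Brg1-deficient group. The median log2 fold change of the list was 0.01.

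**Figure D4:**
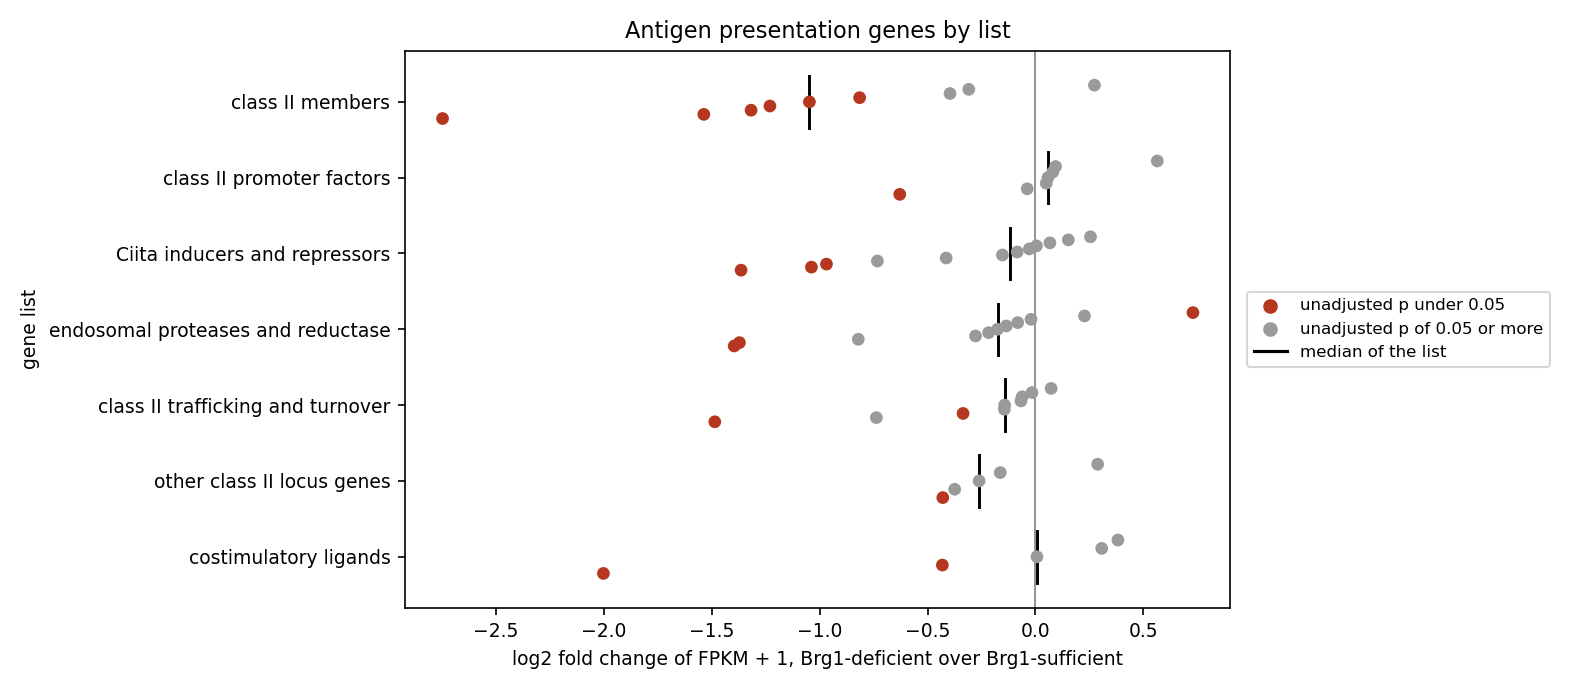
Log2 fold change of FPKM + 1 (Brg1-deficient over Brg1-sufficient) of each gene tested in the class II set and in 6 related lists, with 1 point per gene, red where the unadjusted p is under 0.05, and a black bar at each list's median. The class II median is -1.05, and the medians of the other lists lie between -0.26 and 0.06.

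The class II genes of chromosome 17 are interspersed with others. From the start of H2-Oa to the end of H2-Eb1, a stretch of 224 kb (chr17:34092340-34316674), the table listed 8 members and 9 other genes, of which 5 were tested. Of these 5, none was called at an adjusted p under 0.05. At an unadjusted p under 0.05, 1 was lower, against 6.47% of all genes tested. It was Psmb8, an immunoproteasome subunit, at 211 and 242 FPKM in the controls and 154 and 183 FPKM in those lacking Brg1 (log2 fold change -0.43, adjusted p = 0.362 by limma). Psmb9 and the peptide transporter genes Tap1 and Tap2, which serve MHC class I, had log2 fold changes of -0.16, -0.37 and -0.26, and Brd2, between H2-Oa and H2-DMa, had 0.29. The median was -0.26 for these 5 genes and -1.05 for the 7 members tested in the stretch.

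**Figure D5:**
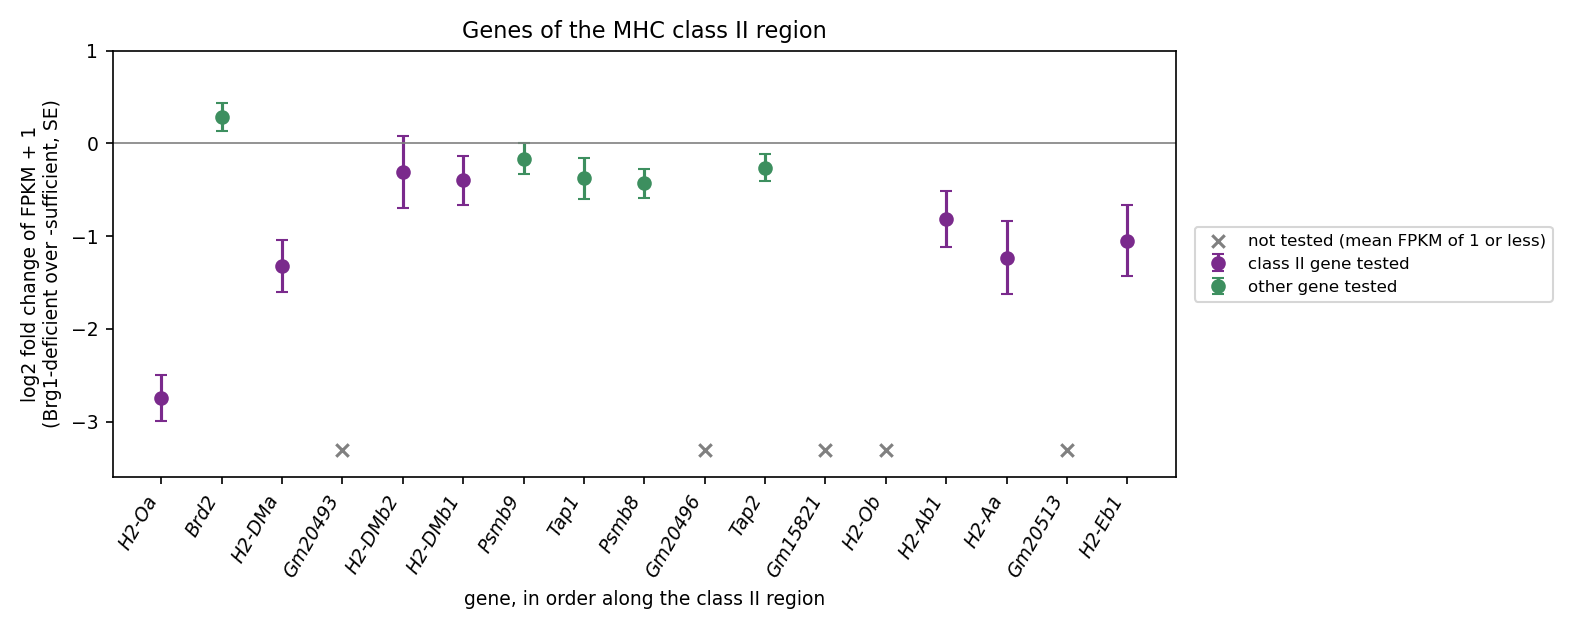
Log2 fold change of FPKM + 1 (Brg1-deficient over Brg1-sufficient) of the 17 genes listed in the class II region, in genomic order, with standard errors from limma (purple, class II genes; green, other genes; crosses, genes not tested). The class II genes tested lie between -2.75 and -0.31, and the other genes between -0.43 and 0.29.

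The 5 protein-coding genes outside the set whose centred log2(FPKM + 1) lay nearest to the mean profile of the 9 members over the 4 libraries were Tanc1, Znrf1, Hhex, Adgre1 and Ifitm3, at Euclidean distances of 0.11 to 0.195. Adgre1, the macrophage marker F4/80, was at 5.76 and 6 FPKM in the controls, against 2.09 and 3.67 FPKM in Brg1-deficient ILC3s. Among the members, H2-Ab1 lay nearest to that profile, at 0.253, and H2-Oa farthest, at 1.87.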

How the data were processed

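The data were RNA-seq of ILC3s sorted from mixed bone marrow chimeras, 2 libraries per group. The authors aligned the reads to GRCm38.p5 with STAR 2.5, quantified genes of GENCODE M16 with RSEM 1.2, and deposited 1 FPKM value per gene and library, with 2 decimals. Sorted by size, the FPKM values hardly differed between libraries (99.3% of 13693 ranks within 1%), so the depth is unknown, a difference in total RNA between groups is absent from these values, and no counting interval was computed. The libraries listed 30046 to 36929 genes above 0 FPKM. The labels give 90-base single-end reads, and whether a library pooled mice is not given in the sources used here. Replicates are the study's biological duplicates.

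The test was limma 3.58.1 under R 4.3.3 (lmFit, then eBayes with trend), fitted to log2(FPKM + 1), which understates changes of low genes, for genes whose mean FPKM exceeded 1 in at least 1 group, with Benjamini-Hochberg adjustment over all 14739 genes. Intervals are 95%. The authors' own test used counts, which were not used here. The members, the lists and the named genes were chosen with earlier results of these data known. Named were the members, list genes with an unadjusted p under 0.05, up to 4 abundant genes per list, markers, and the 5 genes nearest in profile. Positions and overlaps are from GENCODE M21. Alternatives were a pseudocount of 0.1, no filter, a filter at 5, quantile normalization, no trend, a replicate block and leaving out each library. The fit was also run on simulated data. These were drawn with a variance that follows abundance, as the fit assumes, so they cannot show that this holds for the libraries here.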

Additional observations from a re-analysis of the deposited data

How the results depend on the processing

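Calls depended strongly on the settings, and log2 fold changes on which libraries were used. At an adjusted p under 0.05 the whole table held 33 lower and 12 higher genes, and 73 and 41 with a filter at a mean FPKM of 5. With no filter on low FPKM, limma called 0 lower and 0 higher (1400 and 1308 at an unadjusted p under 0.05), and 0 of the members. Without the trend limma called 0 and 0 (965 and 903 unadjusted), and 0 of the members. Leaving out 1 library gave 0 to 0 lower and 0 to 0 higher genes (509 to 1331 and 521 to 1489 unadjusted), 0 to 0 members lower at an adjusted p under 0.05, and 1 to 6 members lower at an unadjusted p, where the lone library of a group is assumed to vary like the other group. The pseudocount of 0.1 changed no call among the members, and neither did quantile normalization, which could hardly do so since the deposited columns already share 1 distribution. The mean difference of log2(FPKM + 1) over the members was -0.92, from -1.24 without Brg1-deficient library 2 to -0.61 without Brg1-deficient library 1, and it was -1.01 over those with a mean FPKM above 1, an alternative chosen after seeing the data. Leaving out 1 library changed the sign of Ciita (log2 fold change -0.0008 to 0.55, negative without Brg1-sufficient library 1) and of H2-DMb2 (-0.79 to 0.17, positive without Brg1-deficient library 1). The cause was not tested.

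Neither the labels nor the study's methods say that equal numbers pair the libraries, and the correlation between libraries 1 of both groups, each taken as its distance to the group mean, was -0.0004 over all genes. With the replicate block, 248 genes were lower and 150 higher, 5 members were lower (Cd74, H2-Aa, H2-Eb1, H2-DMa and H2-Oa), and the calls were 2 among the Ciita inducers, 2 among the proteases, 1 in trafficking and 1 among the costimulatory molecules.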
